A study of Homo sapiens and Mus musculus with 18 samples.

Results

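The HOX genes of paralog groups 4 to 6 were followed in RNA-seq of human RA-gastruloids, mouse gastruloids and pluripotent cells of both species. Members were the 10 gene rows of these groups in each species, chosen by gene symbol in the GENCODE annotation: HOXA4, HOXB4, HOXC4, HOXD4, HOXA5, HOXB5, HOXC5, HOXA6, HOXB6 and HOXC6 and the mouse genes of the same names. They made up 20 of the 74630 gene rows of both tables, and 10 of the 39 HOX genes in each species. Human embryonic stem cells (ESCs) of the H9 line were sampled in the naïve and in the primed state, those of the RUES2-GLR line in the primed state, and RUES2-GLR cells also gave the early (24 h) and late (120 h) RA-gastruloids. The mouse groups all came from E14Tg2a ESCs: naïve ESCs, day-2 epiblast-like cells (EpiLCs), and gastruloids sampled early, at 72 h, and late, 72 h after that. There were 2 biological replicates in each of the 9 groups. Naïve H9 ESCs were chemically reset, kept in PXGL medium, and had been grown on mouse embryonic fibroblasts that were removed by repeated passaging. Both primed human lines were cultured in StemFlex. For RA-gastruloids, RUES2-GLR ESCs received the WNT agonist CHIR99021 and then CHIR99021 with retinoic acid before aggregation, and received retinoic acid again together with Matrigel between the early and the late sampling. Mouse naïve ESCs were kept in 2i and LIF, EpiLCs were made with Activin A and bFGF, and mouse gastruloids were aggregates of naïve ESCs given a pulse of CHIR99021 without added retinoic acid or Matrigel. Each group therefore stands for 1 cell line, and species, line, hours, retinoic acid and protocol cannot be told apart where human and mouse values are set side by side.

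HOX genes encode homeodomain transcription factors that give cells their address along the head-to-tail axis of the embryo. They sit in clusters named A to D, and genes at the same place in different clusters form a paralog group. Within a cluster, low-numbered genes are switched on first and have the most anterior borders, and groups 4 to 6 are best known from the posterior hindbrain, the cervical and brachial spinal cord and the neck and upper trunk mesoderm. Retinoic acid, WNT signalling, FGF signalling and the CDX factors are known inputs to this part of the clusters, and Polycomb complexes keep the clusters silent in pluripotent cells.

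All members carry a homeobox, the segment that encodes the DNA-binding homeodomain. The homeobox is shown for HOXC6, the member with the lowest adjusted p between early and late RA-gastruloids, beside its mouse counterpart, because resemblance between copies decides whether a short read can be placed. Each runs 180 bases within 1 coding exon, from 5′ to 3′ on the gene's strand, and capitals mark the bases that differ between human and mouse. HOXC6 lies on the plus strand of GRCh38 at chr12:54029675-54029854 and Hoxc6 on the plus strand of GRCm39 at chr15:102919186-102919365, and 7 bases differ.
HOXC6: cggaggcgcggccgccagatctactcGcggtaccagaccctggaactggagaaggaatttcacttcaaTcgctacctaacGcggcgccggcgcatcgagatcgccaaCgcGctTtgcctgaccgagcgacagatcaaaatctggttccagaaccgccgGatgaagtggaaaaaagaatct
Hoxc6: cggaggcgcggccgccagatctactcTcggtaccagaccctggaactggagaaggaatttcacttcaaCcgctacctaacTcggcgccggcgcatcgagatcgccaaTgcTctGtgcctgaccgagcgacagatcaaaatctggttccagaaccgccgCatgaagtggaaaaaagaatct

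Between human and mouse copies of the same gene, the homeobox was 92.2 to 98.3% identical over the 10 members. Between human members of the same paralog group it was 74.4 to 86.7% identical, over 12 pairs, with a median of 81.2%, and between members of other paralog groups 69.4 to 85.6%, over 33 pairs, with a median of 74.4%. Runs of identical bases were sought between Ensembl canonical transcripts only. This leaves out other annotated exons, and in the annotation HOXC4 and HOXC6 share 484 exonic bases. The longest run between canonical transcripts was 50 bases for any pair of human members and 52 bases for any pair of mouse members. Between the human and the mouse transcript of the same gene, by contrast, identical runs reached 282 bases in HOXC4, 277 in HOXC5, 272 in HOXC6, 255 in HOXB5, 169 in HOXA5 and 125 in HOXB4, and the shortest was 53 bases, in HOXD4.

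RefSeq promoter windows of 250 bases before the annotated start (build GRCh38.p14) were held for 5 of the 10 human members, HOXA4, HOXA6, HOXC4, HOXC5 and HOXD4. HOXC4 and HOXC5 had the same window, chr12:54016638-54016887 on the plus strand, which is shown because it is the window of a member that held a searched motif. The counted GENCODE genes begin at different places, HOXC4 at base 54016931 and HOXC5 at base 54033050 of chromosome 12, so the window describes the RefSeq start only. Capitals mark TTTATTG, a sequence bound by CDX factors, 31 bases before the start.
HOXC4 and HOXC5: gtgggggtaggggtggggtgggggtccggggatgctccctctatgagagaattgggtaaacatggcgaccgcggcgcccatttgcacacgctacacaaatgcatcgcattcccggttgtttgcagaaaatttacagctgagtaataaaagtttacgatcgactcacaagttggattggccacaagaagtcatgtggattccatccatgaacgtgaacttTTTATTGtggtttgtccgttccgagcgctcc

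The windows of HOXD4 and HOXA4 are shown for contrast, since per length these genes had the highest and the lowest level of the 10 in early RA-gastruloids. They lie at chr2:176151300-176151549 on the plus strand and at chr7:27130758-27131007 on the minus strand.
HOXD4: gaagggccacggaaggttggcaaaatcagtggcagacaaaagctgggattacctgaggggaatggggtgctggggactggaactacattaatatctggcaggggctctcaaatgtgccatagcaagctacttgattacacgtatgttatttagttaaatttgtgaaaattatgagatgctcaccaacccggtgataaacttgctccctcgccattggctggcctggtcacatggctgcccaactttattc
HOXA4: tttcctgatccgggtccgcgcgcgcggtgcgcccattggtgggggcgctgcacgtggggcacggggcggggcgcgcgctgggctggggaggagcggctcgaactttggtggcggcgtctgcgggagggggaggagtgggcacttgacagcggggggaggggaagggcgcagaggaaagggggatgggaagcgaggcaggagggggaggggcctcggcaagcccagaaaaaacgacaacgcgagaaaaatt

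In all, 4 motifs were searched on both strands. TTTATTG was held by 3.7% of all 34943 RefSeq windows of this length and, among members, by the shared HOXC4 and HOXC5 window alone. The other CDX site TTTATGG (2.3% of all windows), the nuclear receptor half-site AGGTCA (12.1%) and the site TGATTNAT, bound by HOX proteins with their cofactors (2.5%) were in none of the 5 windows. A match is a description of the letters, and none of these data measured binding.

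Libraries held 3681739 to 38771193 counted reads in human and 6487157 to 20052505 in mouse. Levels are given in CPM, counts scaled by TMM-adjusted library size, for 1 gene across samples, and in TPM, which also divides by exonic length, between genes. A count of 0 allows up to 3 counts, which was 0.0714 to 0.954 CPM depending on the library, and such intervals and floors cover counting error only. A fold against a group in which every library was at 0 is a lower bound, computed against the mean of the CPM that 3 counts make in each of its libraries. Differentially expressed transcripts (DETs) had a Benjamini-Hochberg adjusted p below 0.05 in edgeR's quasi-likelihood test and a change of more than 2-fold, a log2 fold change beyond 1. All 10 human members and 8 of the 10 mouse members passed the filter on low counts, and Hoxd4 and Hoxa6 did not. Where a gene shares exonic bases with another, as 7 human and 4 mouse members did, default counting drops the shared reads. The shared part was 39.3% of exonic bases in HOXA6, where it lies under the antisense HOXA-AS3, 32.9% in HOXB6 and 52.3% in Hoxd4. Strand was not used in counting, so a read from the opposite strand within a member's unshared exons is counted for the member.

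Primed human cells held next to no reads of these genes, whereas every member was transcribed in RA-gastruloids. All 10 members were at 0 in both primed RUES2-GLR libraries. In primed H9 ESCs, a single HOXC4 read in replicate 2 was the total over all members and both replicates. The primed lines could therefore not be compared for these genes: with both lines fitted alone, 0 of the 10 had enough reads to be tested, and they passed the filter of the whole fit through the other groups.

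**Figure D1:**
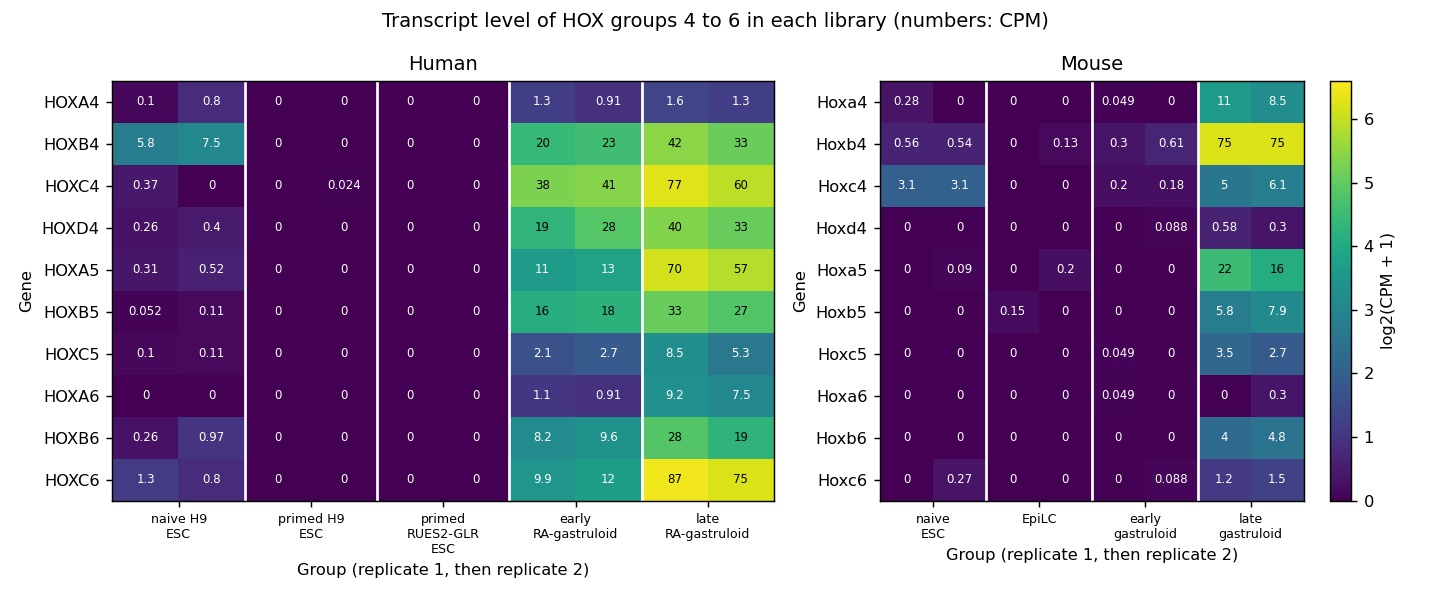
Level of each member in each of the 10 human and 8 mouse libraries. Rows are genes, columns are libraries by group with replicate 1 before replicate 2, the number in each cell is the CPM and the colour its log2(CPM + 1). The members were at or near 0 in primed ESCs and EpiLCs, ran from 0.907 to 40.9 CPM in early RA-gastruloids, and in mouse rose above 1 CPM for 8 genes in late gastruloids.

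Naïve H9 ESCs held more of these transcripts than primed H9 ESCs. Summed over members, the level was 8.56 and 11.2 CPM in the naïve replicates and 0 and 0.0238 CPM in the primed ones. Of the 10 members, 9 were DETs lower in primed H9 ESCs, where 22.3% of all tested genes were called in that direction, and HOXA6 had no read in either group. The difference was mostly HOXB4, a factor known for its use in expanding blood stem cells, which alone took 243 of the 360 reads. HOXB4 was at 5.84 and 7.5 CPM in naïve H9 ESCs and 0 in both primed H9 libraries, so the groups did not overlap, and the fold was at least 47.5 (adjusted p = 1.47e-15, edgeR). HOXC6 followed with 1.25 and 0.802 CPM in the naïve replicates, at least 7.32-fold higher than in primed H9 ESCs (adjusted p = 2.11e-08, edgeR). The bounds for HOXA4, HOXD4, HOXA5 and HOXB6 lay between 2.36-fold (HOXD4) and 4.40-fold (HOXB6). HOXC4 rested on 7 reads, all in naïve replicate 1, against 1 read in primed replicate 2, and its ratio of 10.8 had a 95% counting interval from 1.38 to 486. HOXB5 and HOXC5 had 3 and 4 reads in all and were at or under the floor in both groups, so no fold is given. In a fit of these 2 groups alone, only HOXB4 and HOXC6 had enough reads to be tested, and both were called. Without naïve replicate 1, HOXC4 changed sign (log2 fold change 1.66), and its call was lost without primed replicate 2 (adjusted p = 0.0640, edgeR). HOXA4 lost its call without naïve replicate 2 (adjusted p = 0.0694, edgeR). HOXB5 and HOXC5 lost theirs without naïve replicate 2 (adjusted p = 0.131 and 0.0523, edgeR) and without primed replicate 2 (0.215 and 0.176), and HOXB5 also without primed replicate 1 (0.0511), with DESeq2 (0.0688) and without the filter on low counts (0.0700).

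The naïve H9 libraries differed from the primed ones in fibroblast markers as well. COL3A1, a collagen of connective tissue, was at 181 and 171 CPM in naïve H9 ESCs and at 0.0698 and 0.0476 CPM in primed H9 ESCs. The proteoglycan DCN was at 8.03 and 6.19 CPM and its relative LUM at 1.57 and 2.12 CPM in naïve H9 ESCs, and both were at 0 in primed H9 ESCs. Summed over the 7 genes of the list the ranges were nearer, 664 to 685 CPM in naïve and 646 to 670 CPM in primed H9 ESCs, and THY1 ran the other way, with 0.209 and 0.286 CPM against 380 and 394 CPM. Feeders were of mouse origin. The longest run shared by the human and mouse transcripts was 125 bases in HOXB4, 6th in length of the 10, and 272 bases in HOXC6. These genes had 243 and 38 naïve reads. HOXC4, HOXC5 and HOXB5, with runs of 255 to 282 bases, had 7, 4 and 3. Run length does not show how many feeder reads, if any, were placed on a gene. The part of feeder RNA in the naïve HOX levels was not tested. All other HOX groups with a tested gene were lower in primed H9 ESCs too: 8 of 8 genes of groups 1 to 3, 9 of 9 of groups 7 to 9, and 9 of 9 tested genes of groups 10 to 13. Of all tested genes, 22.3% were called lower. In primed H9 ESCs, 6 of the 8 genes of groups 1 to 3 and all genes of groups 7 to 13 had no read. The direction of their calls was thus largely set.

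All 10 members were already present 24 h after induction, and all 10 were DETs higher in early RA-gastruloids than in primed RUES2-GLR ESCs, against 12% of all tested genes called higher. With no read in these ESCs, the members passed the filter on low counts only through groups where they were high. The direction of a call was thus largely set, here and for late RA-gastruloids below. In a fit of the 2 groups alone, 8 of the 10 had enough reads to be tested. Summed over the members, the level was 0 in both ESC replicates and 128 and 149 CPM in the RA-gastruloid replicates. HOXC4, a gene of the posterior hindbrain and cervical cord, was at 38.5 and 40.9 CPM, at least 66.2-fold above the ESC floor of 0.600 CPM (adjusted p = 1.42e-16, edgeR). HOXD4, a known retinoic acid target with its border in the hindbrain, was at 18.9 and 27.8 CPM, at least 38.9-fold higher. HOXB4 was at 20.2 and 23.0 CPM, at least 36.0-fold higher. Group 4 was not uniform, because HOXA4 reached 1.34 and 0.907 CPM, at least 1.88-fold higher (adjusted p = 0.00110, edgeR). Of group 5, HOXB5, known from enteric neural crest, was at least 28.6-fold higher, HOXA5, needed for lung and phrenic motor neuron development, at least 20.4-fold and HOXC5, which acts with HOXA5 in phrenic motor neurons, at least 4.03-fold. Of group 6, HOXC6, a gene of brachial motor columns, was at least 18.2-fold higher, HOXB6, a gene of lateral plate mesoderm, at least 14.8-fold and HOXA6 at least 1.64-fold. These bounds are set by the shallowest library, RUES2-GLR replicate 2, where 3 counts make 0.954 CPM. Without RUES2-GLR replicate 1, the calls of HOXA4 (adjusted p = 0.123, edgeR) and HOXA6 (adjusted p = 0.0747, edgeR) were lost. Late RA-gastruloids set against the same ESCs gave 10 members higher as well, against 17.3% of all tested genes, with bounds from 2.43-fold for HOXA4 to 135-fold for HOXC6, and without RUES2-GLR replicate 1 that of HOXA4 was lost (adjusted p = 0.0632, edgeR).

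Per length, early RA-gastruloids had a steep order of levels. HOXD4 led with 64.9 and 95.8 TPM, followed by HOXC4 with 54.2 and 57.9 TPM, HOXB4 with 39.4 and 44.9 TPM, HOXB5 with 34.0 and 38.0 TPM and HOXA5 with 25.9 and 29.6 TPM. These 5 stood apart from each other, in that the replicate ranges of neighbours did not overlap. HOXB6 and HOXC6 followed with means of 13.3 and 12.4 TPM and overlapped, HOXC5 had a mean of 5.86 TPM, and HOXA6 and HOXA4 closed the order with overlapping means of 2.98 and 2.54 TPM. HOXC4 stood 9.56-fold above HOXC5 in TPM. Counting dropped the reads of shared bases, and over unshared bases alone HOXA6 had 5.07 and 4.37 TPM, above HOXA4 with 3.48 and 2.36 TPM. On that scale HOXB6, with 17.5 and 20.6 TPM, also stood above HOXC6, with 12.8 and 15.5 TPM, while HOXD4 and HOXC4 overlapped.

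From early to late RA-gastruloids the members rose unequally, and the 5 with the largest fitted changes were HOXA6, HOXC6, HOXA5, HOXC5 and HOXB6, all of groups 5 and 6. Of the 10 members, 5 passed the 2-fold threshold as DETs, 2 of group 5 and 3 of group 6, against 11.8% of all tested genes called higher. On an adjusted p below 0.05 alone 9 of the 10 rose, and the share of all tested genes that did so is not given. None fell. The median log2 fold change was 1.11 over the members and 0 over all tested genes. By paralog group the medians were 0.72 for the 4 genes of group 4, 1.56 for the 3 of group 5 and 2.89 for the 3 of group 6. Both late replicates lay above both early replicates for 9 of the 10 members, HOXA4 being the exception, and for 37% of all tested genes.

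**Figure D2:**
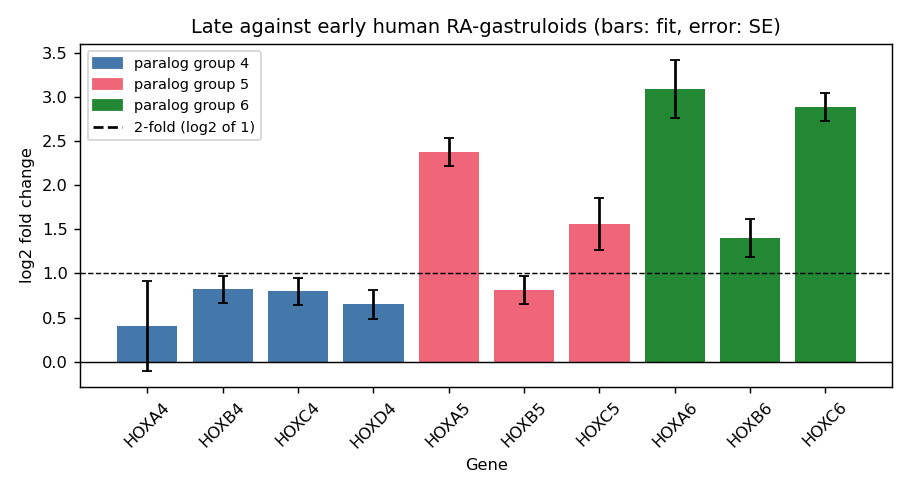
Log2 fold change of each member between early and late RA-gastruloids, from the edgeR fit of all 10 human libraries. Bars are fitted values coloured by paralog group, error bars are standard errors, and the dashed line marks 2-fold. The 4 genes of group 4 sit below the line, between 0.40 and 0.82, and the 3 genes of group 6 above it, between 1.41 and 3.10.

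In group 4, HOXB4 went from 20.2 and 23.0 to 42.4 and 33.1 CPM, a log2 fold change of 0.82 ± 0.16 (SE; adjusted p = 6.46e-05, edgeR). HOXC4 went from 38.5 and 40.9 to 77.0 and 60.0 CPM, a log2 fold change of 0.80 ± 0.15 (adjusted p = 6.51e-05, edgeR). HOXD4 went from 18.9 and 27.8 to 39.9 and 32.7 CPM, a log2 fold change of 0.65 ± 0.17 (adjusted p = 0.00156, edgeR). For these 3 genes the late replicates lay above the early ones without overlap, but the change stayed under 2-fold. HOXA4 was at 1.34 and 0.907 CPM early and 1.60 and 1.32 CPM late, its replicates overlapped, and its log2 fold change of 0.40 ± 0.51 did not pass the test (adjusted p = 0.533, edgeR).

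In group 5, HOXA5 rose most, from 11.4 and 13 to 69.6 and 57.0 CPM, a 5.18-fold change in mean CPM and a log2 fold change of 2.38 ± 0.16 (adjusted p = 1.37e-13, edgeR). HOXC5 rose from 2.11 and 2.72 to 8.47 and 5.29 CPM, a log2 fold change of 1.56 ± 0.29 (adjusted p = 5.45e-05, edgeR). HOXB5 went from 16.2 and 18 to 32.5 and 27.3 CPM, and its log2 fold change of 0.81 ± 0.16 resembled that of its neighbour HOXB4 (adjusted p = 8.29e-05, edgeR). All 3 genes of the group had late replicates above the early ones.

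In group 6, all 3 genes were DETs. HOXC6 rose from 9.88 and 12 to 87.2 and 74.6 CPM, a 7.39-fold change in mean CPM and a log2 fold change of 2.89 ± 0.16 (adjusted p = 1.65e-15, edgeR). HOXA6 rose from 1.06 and 0.907 to 9.20 and 7.53 CPM, with a log2 fold change of 3.10 ± 0.33 (adjusted p = 5.54e-09, edgeR), the highest of the 10. HOXB6 rose from 8.15 and 9.57 to 27.6 and 18.5 CPM, a log2 fold change of 1.41 ± 0.22 (adjusted p = 2.68e-06, edgeR). Within the HOXA cluster the fitted values stood in the order of group number, 0.40, 2.38 and 3.10 for HOXA4, HOXA5 and HOXA6, and within the HOXC cluster likewise, 0.80, 1.56 and 2.89. In the HOXB cluster HOXB4 and HOXB5 differed by less than their standard errors, and HOXB6 was above both.

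The late replicates differed in a way that ran through the members: all 10 were higher in late replicate 1 than in late replicate 2, with sums of 396 and 317 CPM, whereas early replicates summed to 128 and 149 CPM. Leaving out either late replicate left 5 members called. Since these are bulk samples, a change in the number of cells that transcribe a gene and a change in transcript per cell cannot be told apart. Cell type markers shifted over the same step. The summed level of the 4 presomitic mesoderm genes went from 749 and 791 to 6.20 and 4.88 CPM. The 6 somite genes went from 8.44 and 6.35 to 185 and 149 CPM, the 6 neural tube genes from 33.1 and 31.6 to 282 and 252 CPM, and the 5 neural crest genes from 19.9 and 23.9 to 280 and 270 CPM. The 4 endoderm genes fell from 556 and 555 to 27.1 and 26.9 CPM. The 5 intermediate mesoderm genes fell from 33.2 and 37.4 to 10.4 and 8.34 CPM, and the 5 cardiac genes from 13.5 and 10.1 to 0.0484 and 0.203 CPM. The part of these shifts in the HOX change was not tested.

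The unequal rises changed the make-up of the HOX transcripts. As a share of the members' summed TPM, group 4 went from 63.8 and 65.7% in the early replicates to 44.5 and 44.2% in the late ones. Group 6 went from 10.5 and 10.1% to 22.5% in both late replicates, and group 5 from 25.7 and 24.3% to 33.0 and 33.3%. Early and late replicates did not overlap for any of the 3 groups, though with 2 replicates a side the smallest two-sided p of an exact permutation test is 0.33 and none is given. By cluster, HOXA went from 12.7 and 11.3% to 25.4 and 25.9%, while HOXB went from 33.8 and 31.8% to 25.8 and 25% and HOXD, which is HOXD4 alone, from 25.6 and 31.4% to 18.4 and 18.7%. HOXC held 27.8 and 25.5% early and 30.5 and 30.4% late. Without division by length, on CPM, HOXD held a mean of 16.7% early and 10.2% late. Of the summed TPM of all 39 HOX genes, the members held 10.6 and 12.1% at the early and 19.8 and 17.8% at the late sampling.

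**Figure D3:**
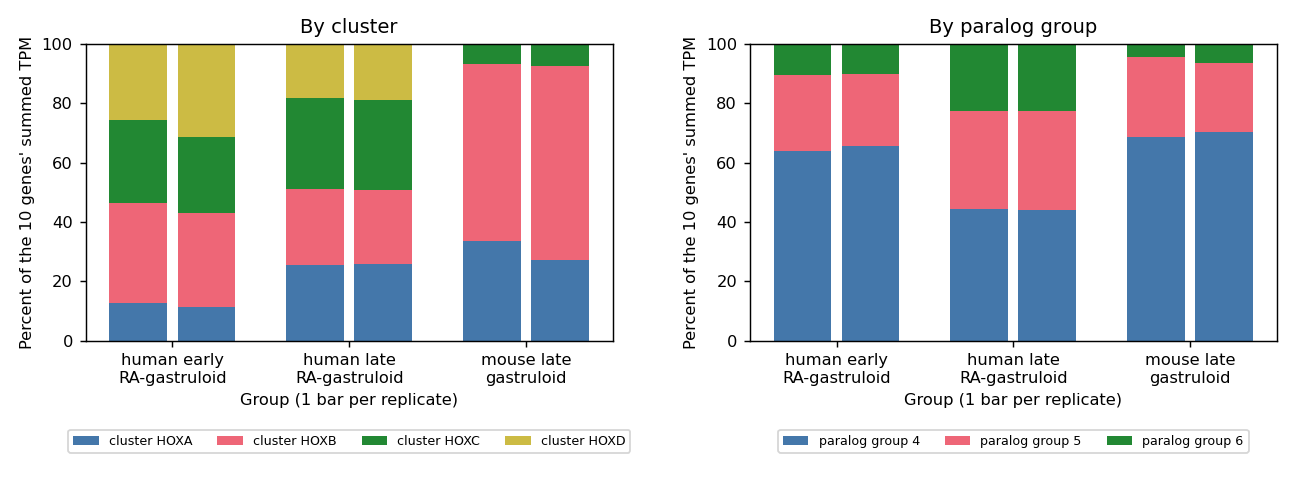
Share of the 10 members' summed TPM by HOX cluster and by paralog group, 1 bar per replicate, in early and late RA-gastruloids and in late mouse gastruloids. Group 4 makes up 63.8 to 65.7% of the early, 44.2 to 44.5% of the late human and 68.7 to 70.3% of the late mouse bars, and the HOXD segment is below 1% in mouse.

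Ratios between genes of a cluster, taken within single libraries, moved for some pairs and not for others. HOXC6 stood at 0.206 and 0.235 of HOXC4 in TPM in early RA-gastruloids and at 0.906 and 0.994 in late ones. HOXA5 stood at 8.54 and 14.4 times HOXA4 early and at 43.8 and 43.3 times late, and HOXB6 at 0.310 and 0.320 of HOXB4 early and 0.501 and 0.431 late. HOXB5, which lies between these last genes, stood at 0.863 and 0.845 of HOXB4 early and 0.825 and 0.888 late, so the replicates overlapped. HOXC4 and HOXC6 share 484 exonic bases whose reads were not counted for either. In late RA-gastruloids, HOXA5 led the order with 160 and 135 TPM and overlapped HOXD4 with 139 and 117 TPM. HOXC4 (mean 99.3 TPM) and HOXC6 (93.9 TPM) overlapped, as did HOXB4 (75.6 TPM) and HOXB5 (64.5 TPM). HOXB6 with 35.5, HOXA6 with 26.1 and HOXC5 with 17.1 TPM each stood apart, and HOXA4 stayed last with 3.66 and 3.12 TPM. Over unshared bases HOXA6 was at 44.7 and 37.8 TPM and overlapped HOXB6, at 60.0 and 41.6 TPM, which in turn overlapped HOXB5, and HOXC4 overlapped HOXD4.

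In mouse, the members other than Hoxc4 were below 1 CPM in every library until the late stage. Summed over members, the level was 3.90 and 4.03 CPM in naïve ESCs, 0.148 and 0.328 CPM in EpiLCs, 0.641 and 0.966 CPM in early gastruloids, and 129 and 123 CPM in late gastruloids. The naïve level was mostly Hoxc4, at 3.06 and 3.13 CPM, which had no read in either EpiLC library, at least 9.69-fold less (adjusted p = 1.09e-10, edgeR). Hoxb4 was at 0.557 and 0.537 CPM in naïve ESCs and at 0 and 0.131 CPM in EpiLCs, a ratio of 6.0 with a counting interval from 1.28 to 56.3 (adjusted p = 0.0164, edgeR), and its call was lost without naïve replicate 2 (0.0640) or EpiLC replicate 1 (0.0655). These were the 2 DETs of the 8 tested, against 12.1% of all 15003 tested genes called lower. From EpiLCs to early gastruloids the same 2 genes were called higher, against 11.7%, on 2 and 13 reads of Hoxb4 and 0 and 6 reads of Hoxc4. Neither call held in DESeq2, where adjusted p was 0.110 and 0.0889, nor without EpiLC replicate 1 (adjusted p = 0.148 and 0.0860, edgeR), EpiLC replicate 2 (0.0523 and 0.247) or early replicate 2 (0.185 and 0.0541), and that of Hoxc4 was also lost without early replicate 1 (0.105). Between naïve ESCs and early gastruloids, Hoxc4 was 16.6-fold lower in the latter (adjusted p = 1.18e-09, edgeR), the 1 DET among 8 tested, against 6.81% called lower.

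In late mouse gastruloids all 8 tested members were DETs higher than in early gastruloids, against 20.1% of all tested genes called higher. All of them but Hoxc4 passed the filter on low counts only through the late libraries, where they were high. For these the filter largely set the direction of the call, and the share over all genes is no like yardstick. Hoxb4 went from 0.296 and 0.615 to 75.3 and 74.8 CPM, a 165-fold change in mean CPM and a log2 fold change of 7.47 ± 0.19 (adjusted p = 6.55e-40, edgeR). Hoxc4 went from 0.197 and 0.176 to 5.01 and 6.10 CPM, a log2 fold change of 4.78 ± 0.46 (adjusted p = 7.68e-14, edgeR). The late replicates of both lay far above the early ones.

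Hoxa5 had no read in early gastruloids and was at 22.1 and 16.1 CPM in late ones, at least 92.9-fold higher (adjusted p = 1.84e-25, edgeR). Hoxb5 went from 0 to 5.83 and 7.88 CPM, at least 33.3-fold higher, and Hoxb6 from 0 to 3.96 and 4.76 CPM, at least 21.2-fold higher. Hoxa4, Hoxc5 and Hoxc6 each had 1 early read and reached 11.1 and 8.47, 3.50 and 2.68, and 1.17 and 1.49 CPM, with ratios of 315, 99.3 and 41.4 whose counting intervals began at 55.6, 17.0 and 6.62. Hoxd4 had 1 read in both early libraries together and 7 in the late ones, at 0.583 and 0.297 CPM, and Hoxa6 had 1 early and 2 late reads, and neither was tested in edgeR for want of reads. The late to early ratio was 14.5 for Hoxd4, with a counting interval from 1.86 to 653 and replicates that did not overlap, and 4.14 for Hoxa6, with an interval from 0.215 to 244 that includes no change.

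Cell type markers shifted over the mouse step as well. The 5 cardiac genes went from 5.82 and 5.27 to 239.6 and 245 CPM in sum, the 7 fibroblast genes from 16.0 and 16.2 to 491 and 533 CPM and the 5 intermediate mesoderm genes from 3.45 and 3.34 to 107 and 106 CPM. The 6 somite genes went from 32.6 and 32.1 to 161 and 159 CPM and the 6 neural tube genes from 18.9 and 19.9 to 159 and 168 CPM, whereas the 5 neural crest genes went from 17.8 and 18.3 to 5.71 and 7.14 CPM. The part of these shifts in the HOX change was not tested.

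**Figure D4:**
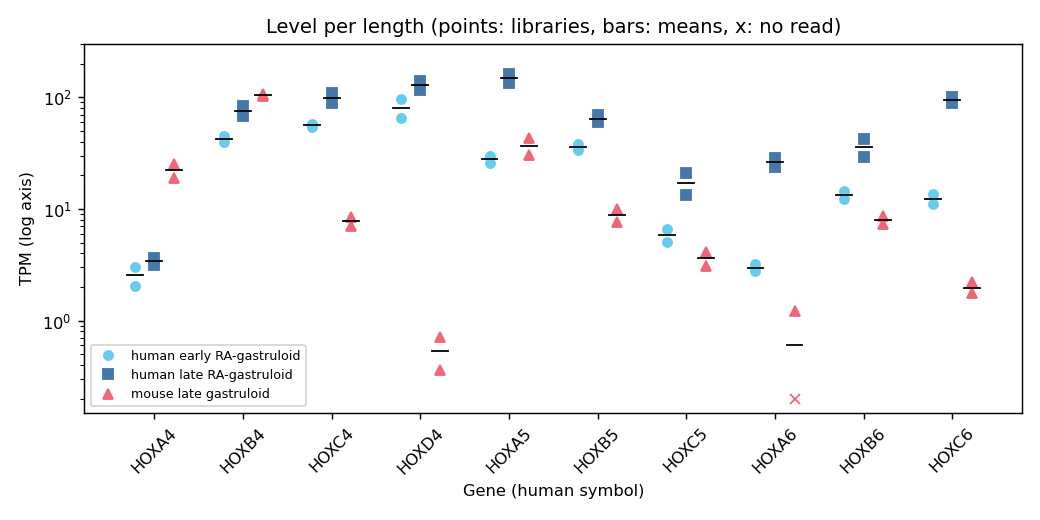
Level per length of each member, in TPM on a log axis, in early and late RA-gastruloids and in late mouse gastruloids. Points are libraries, short bars are means of 2 replicates and a cross marks a library with no read. HOXB4 and HOXA4 are higher in mouse, at means of 105 and 22.1 TPM against 75.6 and 3.39 TPM in late RA-gastruloids, and the other 8 genes are higher in human.

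Per length, late mouse gastruloids were led by Hoxb4 with 107 and 104 TPM, followed at a distance by Hoxa5 with 42.9 and 30.4 TPM and Hoxa4 with 25.3 and 18.9 TPM. Hoxb5, Hoxb6 and Hoxc4 overlapped as neighbours, with means of 8.83, 7.98 and 7.77 TPM. Hoxc5 had a mean of 3.60 TPM and Hoxc6 of 1.98 TPM, and Hoxa6 and Hoxd4 were below 1 TPM on average. The HOXB cluster held 59.8 and 65.4% of the members' TPM, HOXA 33.5 and 27.0%, HOXC 6.38 and 7.34%, and HOXD 0.353 and 0.192%. HOXC6 stood at 0.248 and 0.260 of HOXC4, and HOXA5 at 1.70 and 1.61 times HOXA4. Of the TPM of all 39 mouse Hox genes, the members held 45.4 and 42.2%. Over unshared exonic bases, Hoxd4 had a mean of 1.09 TPM in place of 0.539 TPM.

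The early to late step differed between the species for 7 of the 10 members (HOXA4, HOXB4, HOXC4, HOXA5, HOXB5, HOXC5 and HOXB6), tested as the human step minus the mouse step in 1 edgeR fit of all 18 samples. All 7 were smaller in human, where 28.6% of the 14007 matched genes were called in that direction and 59.3% in either. HOXA4, HOXA5, HOXB5, HOXC5 and HOXB6 had 0 or 1 read in early mouse gastruloids. For these the direction was largely set by a mouse start at the floor, and the shares over all genes are no like yardstick. For HOXB4 the difference was -6.51 ± 0.31 on the log2 scale (adjusted p = 9.00e-19, edgeR), and for HOXC4 -3.85 ± 0.51 (adjusted p = 6.70e-08, edgeR). HOXD4 (adjusted p = 0.0650, edgeR), HOXC6 (adjusted p = 0.108, edgeR) and HOXA6 (adjusted p = 0.655, edgeR) did not pass, and for these the mouse values rest on 1 to 20 reads a group. HOXD4 was called without human early replicate 1 (adjusted p = 0.0299, edgeR) or mouse early replicate 2 (0.0343), and HOXC6 without mouse early replicate 2 (0.0499). The human members were already high at the early sampling: their summed level was 128 and 149 CPM in early RA-gastruloids and 0.641 and 0.966 CPM in early mouse gastruloids. The earlier step set primed cells against early gastruloids. RA-gastruloids were grown from primed RUES2-GLR ESCs, but mouse gastruloids from naïve ESCs and not from EpiLCs, so the steps are not alike. The fit gave standard errors of 8463 or more on the log2 scale for 7 of the 10 members. This leaves these untested in effect, because both primed groups were at 0 or nearly so. HOXB4, HOXA5 and HOXB5 were called higher in human, against 27.3% of the matched genes, on 2, 3 and 1 EpiLC reads. The calls of HOXB4 and HOXA5 were lost without EpiLC replicate 2 and that of HOXB5 without EpiLC replicate 1 (adjusted p = 1.00 each, edgeR).

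The neighbours in the clusters and the known regulators were counted from lists. In early RA-gastruloids, set against RUES2-GLR ESCs, 8 of 8 genes of groups 1 to 3 and 9 of 9 of groups 7 to 9 were higher, and 2 of 9 tested genes of groups 10 to 13. Of all tested genes, 12% were called higher. Of groups 1 to 3, 7 of the 8 genes had no read in these ESCs, and of groups 7 to 9, 8 of the 9. The direction of their calls was thus largely set. From early to late RA-gastruloids, 3 of 8 genes of groups 1 to 3 were higher and 1 lower, 6 of 9 of groups 7 to 9 were higher, and of groups 10 to 13, 1 was higher and 2 lower of 9 tested. Of all tested genes, 11.8% were called higher over this step, and the share called lower is not given. In mouse, from early to late gastruloids, 7 of 7 tested genes of groups 1 to 3, 9 of 9 of groups 7 to 9 and 3 of 6 of groups 10 to 13 were higher, with 1 of the last lower. Of all tested mouse genes, 20.1% were called higher. In each of these lists only 1 gene reached 1 CPM in both early libraries, so this share is no like yardstick.

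Among 13 upstream regulators, 5 were higher and 6 lower in late than in early RA-gastruloids, against 11.8% of all tested genes called higher. The CDX genes, known activators of central HOX genes, were among the lower ones: CDX2 went from 254 and 261 to 24.8 and 24.5 CPM, CDX1 from 249 and 243 to 111 and 86.8 CPM, and CDX4 from 1.53 and 1.21 to 0.0968 and 0 CPM. ALDH1A2, which makes retinoic acid, went from 35.9 and 35.3 to 115 and 118 CPM, and the receptor gene RARB from 2.40 and 2.52 to 26.3 and 27.4 CPM. In mouse, 7 of 12 tested regulators were higher and 4 lower, against 20.1% of all tested genes called higher. The mouse CDX genes were split. Cdx2 went from 4.59 and 5.0 to 11 and 11.4 CPM, whereas Cdx1 went from 16.9 and 17.9 to 0.699 and 0.595 CPM and Cdx4 from 0.937 and 0.966 to 0.117 and 0 CPM, both called lower. Aldh1a2 went from 3.50 and 4.83 to 152 and 138 CPM. Rara went from 42.8 and 40.7 to 86.5 and 84.9 CPM and Rarb from 0 to 17.1 and 17.7 CPM. Rarg fell from 122 and 126 to 33.3 and 30.5 CPM.

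Of 9 genes for cofactors that bind DNA together with HOX proteins, 3 were higher and none lower in late RA-gastruloids. Among the 3, MEIS1 went from 5.18 and 4.74 to 103 and 108 CPM and MEIS2 from 85.2 and 81.3 to 267 and 266 CPM. In mouse 7 of 9 were higher and none lower over this step. Of 17 Polycomb and trithorax genes, 2 were higher and 1 lower in human and 6 were higher and 6 lower in mouse. Of all tested genes, 11.8% were called higher over this step in human and 20.1% in mouse. The 2 of 17 in human lie about at that share, and the shares called lower are not given.

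Among protein-coding genes outside the HOX clusters, MSX1, a homeobox gene of neural crest and limb mesenchyme, followed the members' mean profile most closely in human, with Pearson's r of 0.998 over 10 samples and among 13578 genes compared. It was at 126 and 134 CPM in early and 325 and 278 CPM in late RA-gastruloids. FOXC2, FBXL17, ZNF516 and FN1 came next, each with r from 0.985 to 0.986. In mouse, Hnrnpa0, Spink1, Capn6, Pcdhgb6 and Akt1 were nearest, with r from 0.996 to 0.998 over 8 samples and among 12853 genes. These values describe likeness only, since the samples fall into groups with and without HOX transcript, and many genes that differ between those groups give a high r.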

How the data were processed

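Polyadenylated RNA of 18 samples had been sequenced. Reads had been trimmed (Trimmomatic 0.39), placed on GRCh38 or GRCm39 with STAR and assigned to genes by featureCounts, run with its defaults, by the authors. The deposited tables give these raw counts per gene, with the exonic length of each gene, and the annotation release is not given in the sources used here. Reads in paralogous or overlapping stretches go uncounted, which lowers members that share bases. Columns not mapped to a sample numbered 0.

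Gene symbols came from GENCODE v44 (44876 of 44910 rows) and vM39 (29486 of 29720 rows). Every length in the deposited tables equalled the merged exons of these releases. R 4.3.3 with edgeR 4.0.16 (TMM, filterByExpr, glmQLFit, glmQLFTest, 1 fit per species) tested 18300 human and 15003 mouse genes. Species steps were compared in 1 fit over genes matched by symbol. DESeq2 1.42.0 was an alternative. Adjustment was by Benjamini-Hochberg over all tested genes. TPM was computed from the deposited lengths. On counts simulated for the early to late step, 199 of 200 changed genes were recovered in human, over 18300 genes, and 198 of 200 in mouse, over 15003 genes, with 2 and 1 false calls. The changed genes were above 1 CPM, their changes lay well beyond 2-fold, and counts were drawn with the spread of the fit itself. The recovery therefore does not extend to members with few reads or smaller changes.

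Groups came from the labels, with 2 biological replicates each. Per the study's methods these were duplicate cultures collected in 1 batch, so p-values measure the spread between such cultures and hold no spread between batches. Members and gene lists were chosen with earlier results of these data known. The text names all 10 members, the genes that overlap them, and the 5 genes per species nearest to them in profile by Pearson's r on log2 CPM (prior count 2, mean of at least 1 CPM). Regulators, cofactors and markers named with values were chosen after their values were seen. Alternatives were other scaling, no filter, DESeq2, the compared groups alone, the adjusted p alone, leaving out each replicate, a replicate block, TPM over unshared bases, and CPM. Replicate numbers did not pair the samples: deviations of same-numbered samples correlated between -0.112 and 0.0684 (10 human pairs of groups) and between -0.0483 and 0.00806 (6 mouse pairs). Homeobox sequences came from GENCODE transcripts and promoter windows from RefSeq.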

Additional observations from a re-analysis of the deposited data

Results flagged for a closer look

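The early to late step differed between human and mouse for 7 members, by the interaction test in edgeR over all 18 samples. Given as the human step minus the mouse step on the log2 scale, the difference was -7.37 ± 1.04 (SE) for HOXA4, -6.51 ± 0.31 for HOXB4, -3.85 ± 0.51 for HOXC4, -8.48 ± 0.82 for HOXA5, -8.54 ± 0.84 for HOXB5, -4.55 ± 0.95 for HOXC5 and -7.30 ± 1.16 for HOXB6. The values for HOXA5, HOXB5 and HOXB6 depend on the prior count, since these genes had no read in early mouse gastruloids, and those for HOXA4 and HOXC5 rest on 1 early read. HOXB4 and HOXC4 had 13 and 6 early mouse reads. Species, cell line, sampling hours and added retinoic acid cannot be told apart in this contrast.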

How the results depend on the processing

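Of 246 counts of members called under alternatives, taken in both directions of every contrast, 230 were within 1.5 times that of the main fit. Many of the 230 were counts in a direction where the main fit had called 0 members, so this number overstates how stable the calls were. Those that moved were as follows. In primed against naïve H9 ESCs, 2 members in place of 9 were called lower when these groups were fitted alone, where the other 8 were not tested. On the adjusted p alone, 9 in place of 5 members rose from early to late RA-gastruloids, with no share over all genes given for this looser rule. From mouse naïve ESCs to EpiLCs, 1 in place of 2 was called lower with DESeq2 and with these groups fitted alone. From EpiLCs to early gastruloids, 1 in place of 2 was called higher without the filter on low counts, 0 with DESeq2 and 0 with these groups alone, where no member was tested. For the species difference in the step from primed cells, DESeq2 called 7 in place of 3.

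With 1 replicate left out, the lone sample of a group was taken to vary like the other groups. The calls then ranged from 6 to 8 (naïve to primed H9 ESCs, lower), 8 to 10 (RUES2-GLR ESCs to early RA-gastruloids), 9 to 10 (to late RA-gastruloids), 5 in each case (early to late RA-gastruloids), 1 to 2 (mouse naïve ESCs to EpiLCs), 0 to 1 higher and 0 to 1 lower (EpiLCs to early gastruloids), 7 to 8 (early to late mouse gastruloids), 7 to 9 (species difference, early to late) and 1 to 3 (species difference, from primed cells). HOXC4 changed sign between naïve and primed H9 ESCs without naïve replicate 1, which held its 7 naïve reads (log2 fold change 1.66, the lowest of the other values being -4.38). HOXA6 changed sign in the species difference without mouse early replicate 1, which held its only early read (-0.62, the highest of the other values being 5.29). Hoxb4 lost its call from naïve ESCs to EpiLCs without naïve replicate 2 or EpiLC replicate 1.

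A replicate block left 5 members called in late against early RA-gastruloids and 8 in late against early mouse gastruloids, and changed no other count of calls. The numbers do not pair the samples, so the block is no test of pairing.

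Of 48 shares under alternatives, 30 moved by more than the replicate SD, since CPM weighs long genes more and unshared bases raise genes that overlap others. On CPM, the HOXB share was 34.4% in early RA-gastruloids and 68.7% in late mouse gastruloids, and the group 4 share 62.0% in early RA-gastruloids, 40.4% in late RA-gastruloids and 72.3% in late mouse gastruloids. Group 6 held 15% early and 31.5% late in RA-gastruloids on CPM, and 27.0% late over unshared bases. HOXC held 38.4% early and 43.9% late, and HOXD 16.7 and 10.2%, on CPM. Over unshared bases, the group 4 share in late RA-gastruloids was 42.9%. Depth limits Hoxd4, Hoxa6 and the primed and naïve groups most, where a change of a few reads decides a call.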
